A study of Mus musculus with 6 samples.

Results

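The major histocompatibility complex (MHC) genes of antigen presentation were examined in hearts of Cav1 knockout (Cav1KO) and wild-type (WT) mice. The set has 9 genes: the class II chains H2-Aa, H2-Ab1 and H2-Eb1, the class II partners Cd74 and H2-DMa, the class II regulator Ciita, the class I heavy chains H2-K1 and H2-D1, and B2m, the class I light chain. They were picked by name, and a probe set was kept where the annotation of the array platform gave it exactly 1 gene symbol and that symbol was one of the 9. This gave 29 of the 45101 probe sets in the table, and all 9 genes among the 18193 with such a probe set. A further 3 probe sets that the annotation gives to H2-K1 or H2-D1 together with another gene were left out.

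The samples are 3 Cav1KO and 3 WT hearts, each measured on 1 Affymetrix array. All came from male mice aged 5 to 6 months that had fasted for 6 hours. The labels give neither the strain nor the deleted part of Cav1, the gene of caveolin-1, a coat protein of the membrane pits called caveolae. They do not state that each sample came from its own animal, and p-values here then describe only how far these 6 samples vary, which may be technical.

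MHC class I molecules stand on nearly all nucleated cells and show peptides of the cell's own proteins to CD8 T cells. MHC class II molecules stand mainly on dendritic cells, macrophages and B cells and show peptides of engulfed material to CD4 T cells. Interferon gamma raises both, class II through the transactivator encoded by Ciita, which acts on promoters that share an X box and a Y box. In the heart, resident macrophages and dendritic cells are known as the main class II-bearing cells, and endothelial cells can carry class II when stimulated.

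The promoter sequences of 5 members are shown because genes of both classes stood higher in Cav1KO hearts, with the values given after them. They come from RefSeq, build GRCm38.p6, and run 5′ to 3′ on the gene's strand from 250 bases before the annotated start to 50 after it. RefSeq windows were found for 6 of the 9 members. Capitals mark 2 motifs searched on both strands. GATTGG has the letters of the Y box core and is written CCAATC where it lies on the other strand. The other is a binding motif of the kappa B type, which reads GGGGA, any base, then TCCC.
H2-Aa, chr17:34287774-34288073, minus strand: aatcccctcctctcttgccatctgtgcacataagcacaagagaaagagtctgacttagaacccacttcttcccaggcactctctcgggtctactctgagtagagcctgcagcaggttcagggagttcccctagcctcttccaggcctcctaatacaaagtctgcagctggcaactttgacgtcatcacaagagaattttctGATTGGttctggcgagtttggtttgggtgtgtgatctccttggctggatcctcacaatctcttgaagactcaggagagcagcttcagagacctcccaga
H2-Eb1, chr17:34305617-34305916, plus strand: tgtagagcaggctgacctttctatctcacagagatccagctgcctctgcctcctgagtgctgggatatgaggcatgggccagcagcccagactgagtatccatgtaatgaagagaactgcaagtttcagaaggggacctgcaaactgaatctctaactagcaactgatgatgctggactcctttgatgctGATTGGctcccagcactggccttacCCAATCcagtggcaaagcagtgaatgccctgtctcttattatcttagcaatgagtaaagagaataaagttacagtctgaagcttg
H2-K1, chr17:34000298-34000597, minus strand: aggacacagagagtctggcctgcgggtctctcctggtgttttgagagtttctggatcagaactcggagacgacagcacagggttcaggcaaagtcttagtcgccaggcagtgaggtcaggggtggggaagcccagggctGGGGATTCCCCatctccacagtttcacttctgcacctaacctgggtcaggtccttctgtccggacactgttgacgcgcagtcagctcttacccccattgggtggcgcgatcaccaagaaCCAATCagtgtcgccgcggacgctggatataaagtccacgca
H2-D1, chr17:35262844-35263143, plus strand: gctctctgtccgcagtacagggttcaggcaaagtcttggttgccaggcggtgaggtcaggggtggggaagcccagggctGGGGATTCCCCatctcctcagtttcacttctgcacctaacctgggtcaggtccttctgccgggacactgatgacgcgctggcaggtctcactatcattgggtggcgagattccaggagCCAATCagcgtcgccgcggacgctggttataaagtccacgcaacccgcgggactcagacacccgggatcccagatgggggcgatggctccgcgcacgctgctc
B2m, chr2:122147437-122147736, plus strand: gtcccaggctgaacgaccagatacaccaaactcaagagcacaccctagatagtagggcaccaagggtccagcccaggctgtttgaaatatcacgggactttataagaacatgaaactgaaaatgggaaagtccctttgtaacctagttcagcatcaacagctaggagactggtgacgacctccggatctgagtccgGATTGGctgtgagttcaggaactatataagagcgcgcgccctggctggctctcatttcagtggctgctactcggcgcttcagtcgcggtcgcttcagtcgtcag
GATTGG was found in at least 1 window of each of the 6 members with a window, H2-DMa included. By gene, it was found in at least 1 window of 4924 of the 27025 genes. By window, GATTGG was found in 16.1% of the 32851 windows of all genes. The longer CTGATTGG, which overlaps it, lay in the windows of H2-Aa, H2-Eb1, H2-K1 and H2-D1 and in 4.1% of all windows. The kappa B motif lay in the windows of H2-K1 and H2-D1 alone among these 6 genes, as 2 overlapping matches on opposite strands, and in 0.323% of all windows. The H2-K1 and H2-D1 windows were identical at 211 of 239 aligned bases, or 88.3%. A STAT motif, TTC and GAA with any 3 bases between them, lay in 8.3% of all windows and in none of the members' windows. A match describes the letters and is not evidence of a bound site, and a GATTGG match alone does not show a Y box. In the H2-K1 and H2-D1 windows shown, GATTGG lay on the other strand. In that of H2-K1 it began 8 bases after the annotated start.

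For testing, the deposited intensities were quantile normalised and compared as log2(intensity + 16), a scale that understates changes of low genes. Differences are Cav1KO minus WT, tested with limma over the 22519 probe sets in the upper 50% by mean, at a Benjamini-Hochberg adjusted p of 0.05. Cav1 itself, the check of the labels, had deposited intensities of 120, 104 and 101 in Cav1KO hearts, against 3745, 3869 and 4259 in WT hearts. Whether its probes lie in the deleted part is unknown here. Over all tested probe sets 714 passed, or 3.17%, with 531 (2.36%) higher and 183 (0.813%) lower in Cav1KO hearts. That split was 577 higher and 58 lower with the intensities as deposited, and 585 and 41 when each array was centred on its median. Array medians of the deposited intensity lay between 43.8 and 45.8. The number of arrays limits the precision.

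Of the 29 member probe sets, 20 were bright enough to be tested and cover 8 genes. Among these 20, 4 passed the threshold as higher in Cav1KO hearts and 0 as lower, beside 2.36% and 0.813% of all tested probe sets. The 4 belong to class I: 3 of H2-D1 and 1 of H2-K1. Cav1KO hearts lay wholly above WT hearts at 16 of the 20, which was so for 12.3% of all tested probe sets. The median difference of the 20 was 0.35 on the log2 scale, against -0.0096 over all tested probe sets. The plot of the brightest probe set of each gene shows every heart.

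**Figure D1:**
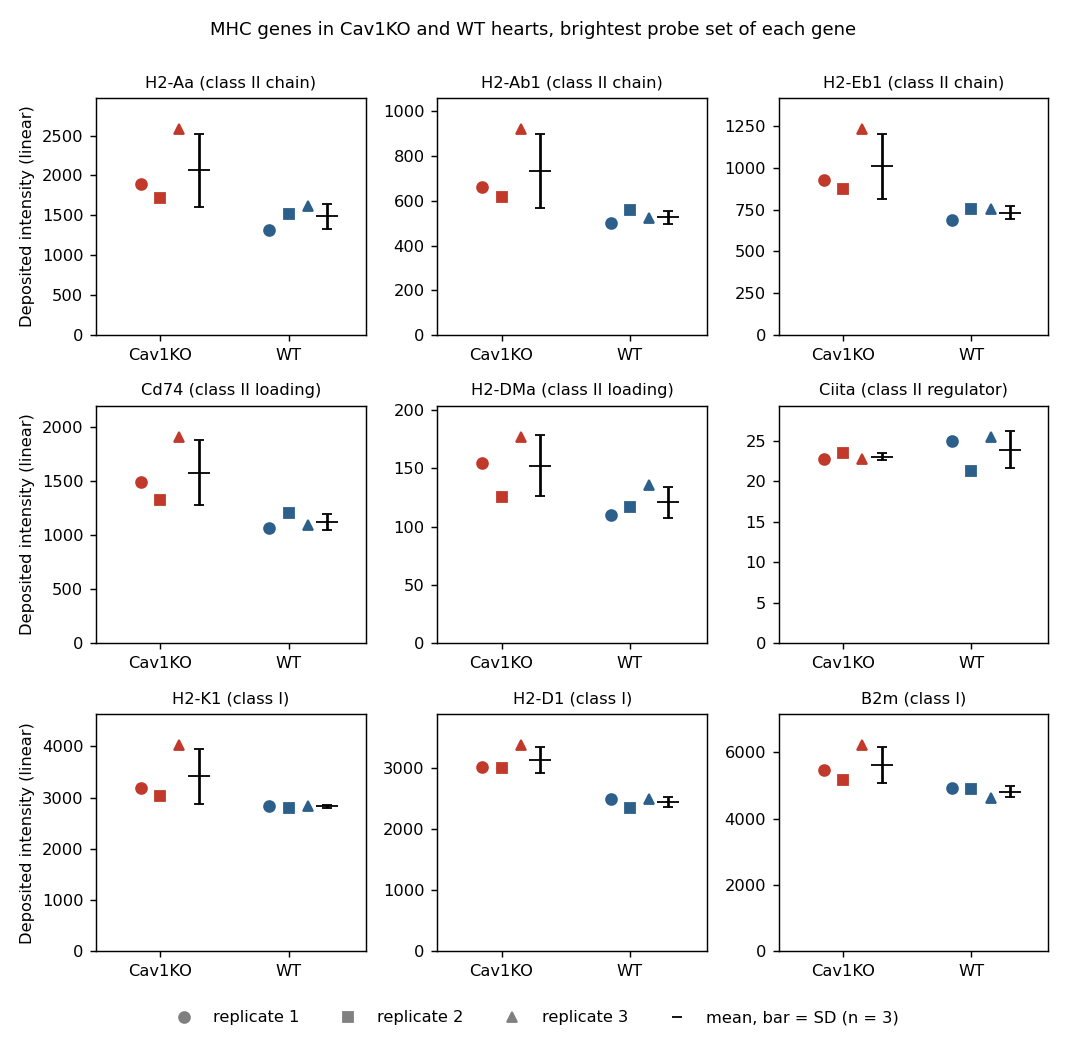
Deposited linear intensity of the brightest probe set of each of the 9 genes in 3 Cav1KO (red) and 3 WT (blue) hearts, with symbols for replicates and black bars for the mean and SD. Cav1KO replicate 3 is the highest heart for every gene except Ciita, and Ciita stays between 21.3 and 25.5 in all hearts.

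The class II chains were higher in all 3 Cav1KO hearts at their brightest probe sets, by 0.38 to 0.42 on the log2 scale, but none of their probe sets passed the threshold. H2-Aa, the alpha chain of the I-A molecule, had deposited intensities of 1898, 1717 and 2584 in Cav1KO hearts, against 1322, 1519 and 1622 in WT hearts. The groups did not overlap, and Cav1KO replicate 3 stood far above the other two. The difference was 0.42 (SE 0.13, 95% interval 0.12 to 0.72, limma adjusted p = 0.129), or 1.34-fold. The other 3 H2-Aa probe sets differed by 0.37 to 0.39.

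H2-Ab1, the beta chain that pairs with H2-Aa, had 662, 617 and 921 in Cav1KO hearts, against 499, 557 and 522 in WT hearts. The order among the Cav1KO hearts was that of H2-Aa, and the groups did not overlap. The difference was 0.39 (SE 0.13, 95% interval 0.089 to 0.69, limma adjusted p = 0.156). Its other probe sets differed by 0.32 and 0.35. At the brighter of these the groups overlapped after quantile normalisation but not as deposited.

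H2-Eb1, the beta chain of the I-E molecule, had 925, 873 and 1233 in Cav1KO hearts, against 687, 754 and 755 in WT hearts. Again replicate 3 was the highest Cav1KO heart and replicate 2 the lowest, still above every WT heart. The difference was 0.38 (SE 0.11, 95% interval 0.12 to 0.64, limma adjusted p = 0.114).

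The class II partners were alike in pattern, with Cd74 the member of this arm closest to the threshold. Cd74 encodes the invariant chain, which fills the class II groove until peptide is loaded. Its intensities were 1494, 1323 and 1907 in Cav1KO hearts, against 1065, 1206 and 1095 in WT hearts. No WT heart reached a Cav1KO heart, and the difference was 0.43 (SE 0.11, 95% interval 0.18 to 0.69, limma adjusted p = 0.0822). Without Cav1KO replicate 2 it passed, at 0.55 and an adjusted p of 0.0491 (limma), the lowest adjusted p of the runs that left out 1 heart, which went up to 0.215.

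H2-DMa, the alpha chain of the DM molecule that exchanges peptides on class II, had 155, 126 and 177 in Cav1KO hearts, against 110, 117 and 136 in WT hearts. Here the groups overlapped, because Cav1KO replicate 2 lay below WT replicate 3. The difference was 0.23 (SE 0.12, 95% interval -0.034 to 0.50, limma adjusted p = 0.304). A dimmer probe set of H2-DMa, with 13.6 to 16.9 in Cav1KO hearts and 17.4 to 21.6 in WT hearts, was too low to be tested.

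Ciita was not measured well enough to be compared. Its 3 probe sets had deposited intensities of 10.6 to 23.5 in Cav1KO hearts and 8.3 to 25.5 in WT hearts. All lay under the array medians and under the lowest mean tested, so no change of the class II regulator was detectable on these arrays.

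Of the 10 tested class II probe sets, Cd74 and H2-DMa included, 0 passed at the adjusted threshold with limma, and 8 were higher at an unadjusted p under 0.05, as were 10.3% of all tested probe sets. Their median difference was 0.38. No class II probe set passed in any alternative run except that without Cav1KO replicate 2, where Cd74 passed; with other filters on low values the tested number was 8, 13 or 14.

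Among the class I genes, H2-D1 rose in Cav1KO hearts at 3 of its 4 tested probe sets. H2-D1 encodes a classical heavy chain, the peptide-holding part of the molecule. At its brightest probe set intensities were 3025, 3000 and 3378 in Cav1KO hearts, against 2491, 2353 and 2494 in WT hearts. The groups were well apart, and the difference was 0.33 (SE 0.061, limma adjusted p = 0.0240), or 1.26-fold. At the third in brightness the values were 483, 512 and 541 in Cav1KO hearts, against 328, 399 and 340 in WT hearts.

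There the rise was 0.44 (SE 0.069, limma adjusted p = 0.0134), or 1.35-fold, the highest of all member probe sets tested. The second in brightness rose by 0.35 (SE 0.067, limma adjusted p = 0.0281). The fourth tested probe set of H2-D1 did not pass, at 0.33 (SE 0.083, limma adjusted p = 0.0750), although 190, 190 and 228 in Cav1KO hearts all exceeded 140, 155 and 155 in WT hearts. It passed with the intensities as deposited, at 0.39 (limma adjusted p = 0.0476), and with median centring, at 0.41 (limma adjusted p = 0.0439). A further 5 H2-D1 probe sets stood between 9.5 and 42.0 in all hearts and were not tested.

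H2-K1, the other classical heavy chain, rose at 1 of its 4 tested probe sets. At the second in brightness intensities were 1452, 1355 and 1681 in Cav1KO hearts, against 1099, 1137 and 1131 in WT hearts. That rise was 0.37 (SE 0.074, limma adjusted p = 0.0354), or 1.29-fold. The brightest had 3193, 3028 and 4027 in Cav1KO hearts, against 2842, 2802 and 2842 in WT hearts. Its WT hearts were nearly equal while the Cav1KO hearts were spread, and its difference of 0.23 (SE 0.093, 95% interval 0.025 to 0.44) did not pass (limma adjusted p = 0.206).

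The other two H2-K1 probe sets also did not pass. They stood at 0.22 (95% interval -0.056 to 0.50) for the third in brightness and -0.079 (95% interval -0.34 to 0.18) for the dimmest, the only tested member probe set with a negative difference. Of the 29 member probe sets 16 carry the suffix x, which marks probes that may also match other transcripts, and all 4 that passed are among them. Which of the near-identical heavy chains a rise belongs to is therefore uncertain. Of the tested heavy chain probe sets, only the fourth of H2-D1 lacks that suffix. It did not pass, at 0.33 (limma adjusted p = 0.0750). A probe set annotated to both genes, left out of the set, stood at 0.23 (SE 0.11, limma adjusted p = 0.290). Another, annotated to H2-K1 and H2-Q5, stood at -0.20 (SE 0.096, limma adjusted p = 0.283), and the third was too dim to be tested.

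B2m, the light chain that both heavy chains need to reach the cell surface, was slightly higher at both of its probe sets without passing. The brighter one had 5485, 5162 and 6223 in Cav1KO hearts, against 4926, 4892 and 4626 in WT hearts. The groups did not overlap, and the difference was 0.20 (SE 0.063, 95% interval 0.058 to 0.34, limma adjusted p = 0.131). The second stood at 0.22 (SE 0.067, limma adjusted p = 0.121).

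**Figure D2:**
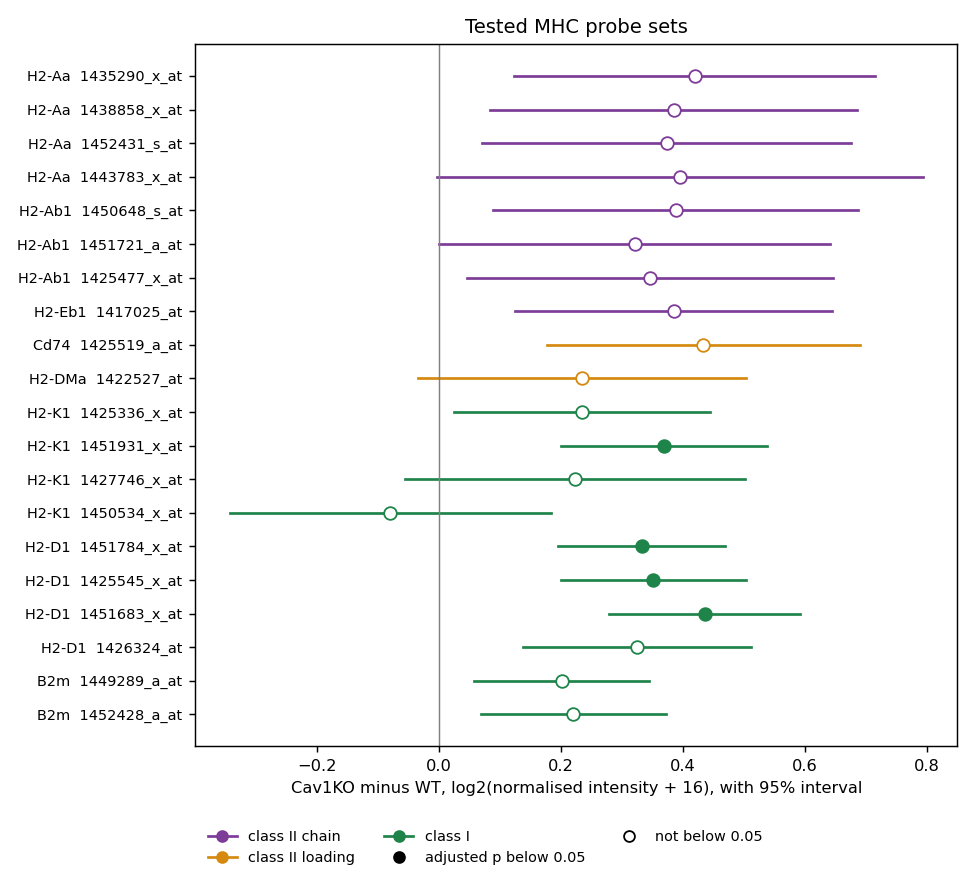
Cav1KO minus WT difference of each tested member probe set on the scale of log2(normalised intensity + 16), with its 95% interval, coloured by role. Filled points passed the adjusted threshold: 3 of H2-D1 and 1 of H2-K1. Class II points lie between 0.23 and 0.43 with wider intervals than those of H2-D1.

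The class I calls depended on single hearts. Of the 4 member probe sets called, 0 remained called without WT replicate 3, 1 without WT replicate 2 and 1 without Cav1KO replicate 1, and 3 without WT replicate 1. Without Cav1KO replicate 3, 4 member probe sets passed, and without Cav1KO replicate 2, 3 passed, Cd74 among them. The fit without a trend in the spread called only the third H2-D1 probe set. The differences of the 4 called probe sets kept their sign in all these runs, between 0.27 and 0.49.

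Class I and class II were set side by side in each heart, by the mean log2 value of the brightest probe sets relative to the WT mean. The class II chains stood at 0.28, 0.17 and 0.74 in the Cav1KO hearts, against -0.036, 0.0072 and 0.029 in the WT hearts. Class I, from H2-K1, H2-D1 and B2m, stood at 0.20, 0.14 and 0.43 in the Cav1KO hearts, against 0.060, -0.042 and -0.019 in the WT hearts. Both classes had the same order among Cav1KO hearts, replicate 3 above 1 above 2. The SD among Cav1KO hearts was 0.30 for class II and 0.15 for class I (n = 3).

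Class II exceeded class I by 0.087, 0.027 and 0.31 in the Cav1KO hearts, against -0.097, 0.049 and 0.048 in the WT hearts. The mean excess in Cav1KO hearts was 0.14 ± 0.15 (SD, n = 3), and Cav1KO replicate 2 lay below 2 WT hearts. So a larger change of class II than of class I was not separated from the spread between hearts. No p is given for this score, because its members were chosen with results known. Without Cav1KO replicate 3 the excess was 0.058.

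Cav1KO replicate 3 set much of the size of the class II difference. It was the highest of the 6 hearts at 19 of the 20 tested member probe sets, against 11.5% of all 22519 tested. Without it, the median difference of the 8 class II chain probe sets was 0.20, against 0.38 with all hearts, and that of the 10 class I probe sets was 0.19, against 0.28. The other 5 runs that left out a heart gave 0.37 to 0.51 for class II chains and 0.25 to 0.35 for class I.

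**Figure D3:**
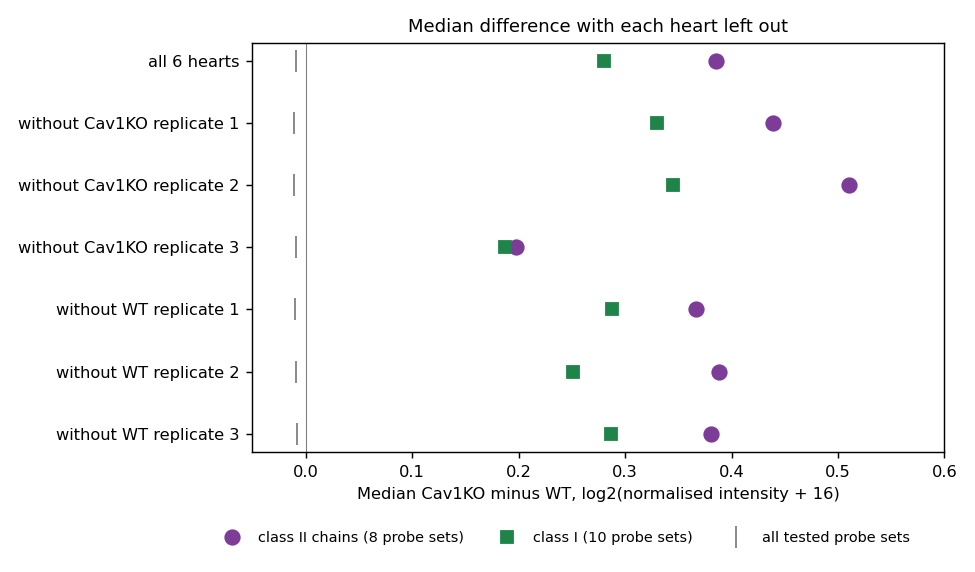
Median Cav1KO minus WT difference on the scale of log2(normalised intensity + 16) over the class II chain probe sets (purple circles), the class I probe sets (green squares) and all tested probe sets (grey bars), with all hearts and with each heart left out. Both class medians are lowest without Cav1KO replicate 3, at 0.20 and 0.19.

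Other genes of class II presentation were measured too. H2-Eb2, from the class II chain list, stood at -0.21 (SE 0.15, limma adjusted p = 0.449), with 46.6 to 81.6 in all hearts. Ctss, the cathepsin that trims the invariant chain in antigen-presenting cells, rose by 0.46 (SE 0.071, limma adjusted p = 0.0114), with 907, 842 and 872 in Cav1KO hearts, against 527, 699 and 593 in WT hearts. Its highest heart was Cav1KO replicate 1, and it did not pass without that heart or without WT replicate 3 (limma adjusted p up to 0.0681). The class II loading list has 9 genes with Cd74 and H2-DMa, of which 5 were tested; 1 rose and 0 fell. H2-DMb2, H2-Oa and H2-Ob, which encode further DM and DO chains, lay between 8.3 and 29.5 in all hearts and were not tested.

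The factors that bind class II promoters did not pass in either direction with limma. Of 8 genes of that list 7 were tested, without Ciita, 1 had an unadjusted p under 0.05, and their median difference was 0.032. Rfxank, a subunit of the factor that binds the X box, stood at -0.24 (SE 0.061, limma adjusted p = 0.0813), and Nfyc, a subunit of the factor that binds the Y box, at -0.13 (SE 0.068, limma adjusted p = 0.321).

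Of 9 class I peptide loading genes 0 passed with limma, 2 had an unadjusted p under 0.05, and the median was 0.097. Tapbp, which bridges class I to the peptide transporter, stood at 0.15 (SE 0.053, limma adjusted p = 0.173) and Canx, a chaperone of the heavy chain, at 0.097 (SE 0.041, limma adjusted p = 0.233). Of 4 tested immunoproteasome genes 0 rose and 1 fell: Psme1, a subunit of the proteasome activator PA28, by 0.24 (SE 0.053, limma adjusted p = 0.0457). With 1 heart left out, Psme1 passed only without Cav1KO replicate 3. It did not pass with the intensities as deposited, at -0.21 (limma adjusted p = 0.108), or with median centring, at -0.19 (limma adjusted p = 0.165). Psmb9, a catalytic subunit induced by interferon gamma, stood at 0.034 (limma adjusted p = 0.879). Of 14 constitutive proteasome genes 0 passed with limma, 2 had an unadjusted p under 0.05, and the median was -0.012. Psma7 stood at -0.18 (limma adjusted p = 0.109) and Psmb2 at -0.14 (limma adjusted p = 0.190).

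Of 7 tested nonclassical class I genes 1 rose and 0 fell, with a median of -0.12. H2-T24 rose by 0.38 (SE 0.081, limma adjusted p = 0.0436), and Hfe, which regulates iron uptake, stood at -0.21 (SE 0.048, limma adjusted p = 0.0553). Cd1d1 stood at -0.38 (SE 0.13, limma adjusted p = 0.157). With 1 heart left out, H2-T24 passed in 1 of 6 runs, that without WT replicate 2, with limma adjusted p of 0.0238 to 0.177.

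Of 16 tested genes of the interferon gamma response, 1 rose and 0 fell, with a median of 0.099. Irf8, a transcription factor of macrophages and dendritic cells, rose by 0.47 (SE 0.063, limma adjusted p = 0.00619), and passed with any 1 heart left out. Ifngr1 stood at 0.22 (SE 0.067, limma adjusted p = 0.123) and Jak1 at -0.11 (SE 0.050, limma adjusted p = 0.246). Cxcl9, a chemokine that draws T cells, stood at -0.52 (SE 0.16, limma adjusted p = 0.128), and without Cav1KO replicate 3 it fell by 0.73 (limma adjusted p = 0.00919). The summed normalised intensity of the 18 genes on the array was 6406, 6301 and 7368 in the Cav1KO hearts, against 6447, 6414 and 6303 in the WT hearts. Here too Cav1KO replicate 3 was the highest, and the groups overlapped. Cav1KO replicate 3 was the highest heart at 7 of the 16 tested genes. Listed genes Gbp2, Igtp and Irgm2, chosen after their values were seen, stood at 0.57, 0.54 and 0.56 above the WT mean in that heart. In the other Cav1KO hearts these genes stood between -0.076 and 0.11. Gbp6 went the other way, with 8.67 on the log2 scale in that heart against 8.88 and 9.12 in the other Cav1KO hearts. The part of this response in the class II values of Cav1KO replicate 3 was not tested. Of 5 tested costimulation genes 0 passed with limma and 1 had an unadjusted p under 0.05, Icam1 standing at 0.23 (limma adjusted p = 0.146) and Cd40 at 0.038 (limma adjusted p = 0.785).

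**Figure D4:**
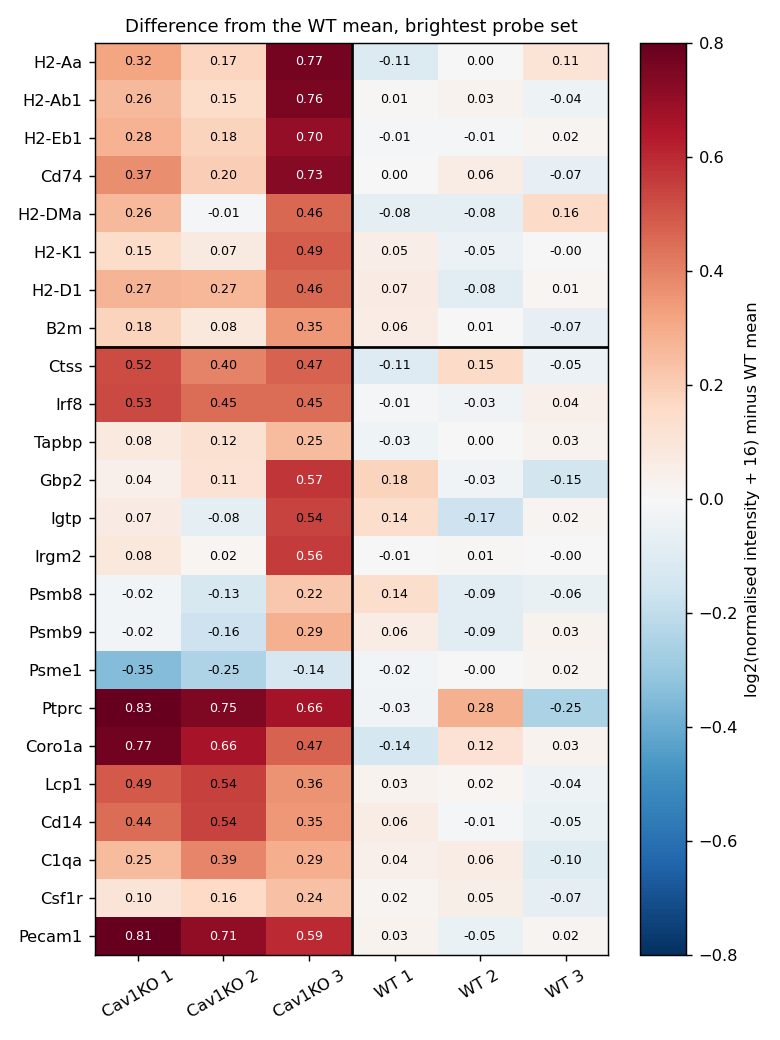
Difference of each heart from the WT mean on the scale of log2(normalised intensity + 16), for the brightest probe set of the 8 tested members (above the line) and 16 other genes chosen after their values were seen (below). Members are highest in Cav1KO replicate 3, while Ptprc, Coro1a and Pecam1 are highest in Cav1KO replicate 1.

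Some pan-leukocyte and macrophage markers passed as higher in Cav1KO hearts, as did 2.36% of all tested probe sets. In whole tissue, more cells of a type and more RNA per cell cannot be told apart. Of 8 pan-leukocyte genes 5 rose and 0 fell, with a median of 0.49, led by Lcp1 at 0.46 (limma adjusted p = 0.00657), Coro1a at 0.63 (limma adjusted p = 0.00979) and Ptprc, which encodes CD45, at 0.75 (limma adjusted p = 0.0140). Laptm5 and Cd52 rose by 0.54 and 0.52. Their summed normalised intensity was 1922 to 2130 in Cav1KO hearts and 1287 to 1518 in WT hearts, with Cav1KO replicate 3 the lowest of its group, although Cd52 was highest in that heart. Of 15 tested macrophage genes 6 rose and 0 fell, with a median of 0.27, and the sum of all 16 was 8947 to 9450 in Cav1KO hearts and 7224 to 8189 in WT hearts. Cd14, a receptor for bacterial products, rose by 0.44 and C1qa, a complement chain, by 0.31, and Tyrobp, Mrc1, Mpeg1 and Fcer1g rose by 0.27 to 0.52. The other 9 tested macrophage genes did not pass. Of these, Mertk stood at -0.093 and Fcgr1 at -0.10, and the rest between 0.17 and 0.32, Csf1r lowest and Cd68 highest. Mrc1 did not pass with median centring (limma adjusted p = 0.0524). With 1 heart left out, Cd14 passed in 3 of 6 runs, C1qa, Tyrobp, Mpeg1 and Fcer1g in 1 of 6 each and Mrc1 in 0 of 6, while Lcp1 passed in 6 of 6, Coro1a in 4 of 6 and Ptprc in 3 of 6. Of the 15 tested macrophage genes 4 were highest in Cav1KO replicate 3, Mpeg1 among them. The part of these cells in the class I and class II differences was not tested.

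Of 8 dendritic cell genes on the array 3 were tested, 0 passed with limma and 0 had an unadjusted p under 0.05, with a summed intensity of 326 to 362 in Cav1KO hearts and 334 to 336 in WT hearts. Zbtb46, a transcription factor of that lineage, stood at 0.17 (limma adjusted p = 0.315) and Flt3 at -0.095 (limma adjusted p = 0.559). Itgax, which encodes CD11c, was too dim to be tested, at 18.6 to 34.2 in all hearts, as was the B cell gene Ms4a1, which encodes CD20, at 16.4 to 31.4. Of 7 B cell genes 2 were tested, 0 passed with limma and 0 had an unadjusted p under 0.05, with sums of 195 to 267 in Cav1KO hearts and 199 to 227 in WT hearts. Cd79b and Cd79a, the signalling chains of the B cell receptor, stood at 0.14 and 0.10. Of 7 T cell genes 3 were tested, 0 passed with limma and 0 had an unadjusted p under 0.05, with Cd3e at -0.18 and Cd4 at -0.19, and sums of 277 to 302 in Cav1KO hearts and 296 to 341 in WT hearts.

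Of 10 endothelial genes 4 rose and 0 fell, with a median of 0.18, Pecam1, an adhesion molecule of endothelial junctions, by 0.71 (limma adjusted p = 0.000950). Tek and Tie1, which encode angiopoietin pathway receptors, rose by 0.49 and 0.42, and Cldn5, a tight junction protein, by 0.72. The other 6 did not pass. Of these, Kdr stood at -0.039 (limma adjusted p = 0.803), and Flt1, Cdh5, Eng, Vwf and Emcn at 0.084 to 0.18. Over all tested probe sets 2.36% passed as higher. The sums of the 10 endothelial genes were 6156 to 6993 in Cav1KO hearts and 5145 to 5430 in WT hearts, highest in Cav1KO replicate 1. Of 8 fibroblast genes 2 rose and 0 fell, Col1a1 by 0.51 and Col3a1 by 0.65, both fibrillar collagens. Those 8 genes were all highest in Cav1KO replicate 3, as the class II chains were, with sums of 15379 to 18829 in Cav1KO hearts and 13160 to 14999 in WT hearts. Of 10 cardiomyocyte genes, which mark the labelled tissue, 0 passed with limma and 0 had an unadjusted p under 0.05, with a median of -0.0022 and sums of 162620 to 164786 in Cav1KO hearts and 163246 to 165130 in WT hearts.

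MHC genes differ in sequence between mouse strains, and an array probe can bind one strain's allele better than another's. The labels give no strain, so MHC haplotype and Cav1 genotype cannot be told apart at the chromosome 17 members. H2-Ea, the alpha chain that pairs with H2-Eb1, is known to be silent in some haplotypes, that of C57BL/6 mice among them. Its brightest probe set had 52.8, 52.2 and 53.6 in Cav1KO hearts, against 74.1, 56.9 and 52.6 in WT hearts, close to the array medians. The groups overlapped, at -0.16 (SE 0.10, limma adjusted p = 0.414), and its other probe sets lay between 6.2 and 12.3 in all hearts.

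Cd74, on chromosome 18, and B2m, on chromosome 2, lie outside the MHC, and their brightest probe sets differed by 0.43 and 0.20. The brightest probe sets of the 6 members on chromosome 17 differed by 0.23 to 0.42, while the dimmest tested one of H2-K1 stood at -0.079. Of 76 tested genes within 1 Mb of H2-Ab1 that are not H2 genes, 2 rose and 0 fell. Of all tested probe sets, 2.36% rose and 0.813% fell. The median of the 76 was 0.011, with a range of -0.31 to 0.56. The 2 that rose were Clic1, a chloride channel protein, by 0.36 (limma adjusted p = 0.0140) and Kank3 by 0.34 (limma adjusted p = 0.0164).

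Among 11478 other genes with a tested probe set, 5 followed the mean of the class II chains most closely over the 6 hearts. They were Sparcl1 (Pearson's r = 0.996), Akap13 (r = 0.995), Hnrnph1 (r = 0.990), Pld4 (r = 0.988) and Cox18 (r = 0.985). With 6 points from 2 groups on shared arrays this is a description. Sparcl1, a secreted matrix protein, stood at 0.21 (limma adjusted p = 0.194), and none of the 5 passed the threshold. Of the members outside the chains, r with that mean was 0.976 for Cd74, 0.969 for H2-K1, 0.931 for B2m, 0.897 for H2-D1 and 0.888 for H2-DMa.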

How the data were processed

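RNA of 3 Cav1KO and 3 WT mouse hearts was measured on Affymetrix arrays. Trizol extraction and biotin labelling of 2 ug of RNA are recorded in the labels' protocols. The authors deposited 1 intensity per probe set and array on a linear scale. The submitters' processing notes list GCOS 1.4 with no role, and the step from probes to probe sets, with its scaling, was not given in the sources used here. Because trimmed means of the deposited intensities differed by 8.43% between arrays, control probe sets were removed and the others were quantile normalised. R 4.3.3 and limma 3.58.1 were used. Tests used log2(intensity + 16), the upper 50% of probe sets by mean, lmFit and eBayes with a trend, no covariate, and Benjamini-Hochberg adjustment over all 22519 tested; the code was tested on simulated data. All 9 symbols matched RefSeq, assembly GRCm38.p6. Cav1KO replicate numbers follow the order of listing and only name the hearts. Members and gene lists were chosen with earlier results of these data known.

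Named were the members at every probe set, Cav1, H2-Ea, the called neighbours of H2-Ab1, and the 5 genes most like the class II chains. From each list every gene past the threshold was named, with some others that did not pass. Counts and medians over a list take 1 probe set a gene, the brightest by mean. Alternatives were 2 other scalings, 2 pseudocounts, 3 filters, no trend, array weights, all probe sets of a gene averaged for the class score, and leaving out each array.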

Additional observations from a re-analysis of the deposited data

How the results depend on the processing

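The 714 probe sets past the threshold (limma, adjusted p of 0.05) became 411 with no trend in the spread and 1171 with array weights, and ranged from 189 to 749 when 1 heart was left out: 189 without Cav1KO replicate 1, 227 without Cav1KO replicate 2, 299 without WT replicate 3 and 470 without WT replicate 1. The 4 member probe sets past it became 1 with no trend and ranged from 0 to 4 when 1 heart was left out; the 2 other scalings gave 5, and the pseudocounts, filters and array weights gave 4. The excess of class II over class I, 0.14, stayed positive in all its alternatives, from 0.058 to 0.20. Leaving out 1 heart turned the sign of 5 named probe sets that had not passed: the dimmest tested H2-K1 probe set ranged from -0.18 to 0.023, Cd79b from -0.021 to 0.28, Cd79a from -0.019 to 0.20, Cd40 from -0.011 to 0.068 and Psmb9 from -0.091 to 0.13. With 1 heart left out, Pecam1, Tek, Tie1, Col1a1, Irf8, Lcp1 and Cav1 passed in 6 of 6 runs. Laptm5 passed in 4 (not without Cav1KO replicate 1 or 2), Col3a1 in 4 (not without Cav1KO replicate 1 or WT replicate 3), Kank3 and Clic1 in 3 (not without Cav1KO replicate 1 or 2 or WT replicate 3), and Cldn5 and Cd52 in 2. The cause was not tested. The titles give the WT samples a replicate number and the Cav1KO samples none. Each title also carries a longer number of unstated meaning. That of WT replicate 3 lies nearer to those of the Cav1KO samples than to those of the other WT samples. No title names a pair, so no paired analysis was possible. Groups of 3 are too small for a check of single outlying hearts, and the dim probe sets of Ciita, H2-DMa and H2-D1 limit what could be compared.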
